A study of Homo sapiens with 12 samples.

Results

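Chemokines and inflammatory cytokines are small secreted proteins by which cells call in and instruct white blood cells, and 10 of their genes were followed here through an ovarian cancer ascites experiment: CXCL1, CXCL2, CXCL3, CXCL5, CXCL8, CCL2, CCL20, IL6, LIF and IL1A. They were taken from a list of gene names chosen with earlier results of these data known, and matched by Ensembl identifier. Of the 10, 9 were found among the 19251 genes in the files, and IL1A was not analysed here. All 9 passed the filter on low values (at least 10 in at least 3 of the 12 libraries), and 5 of them (CXCL1, CXCL5, CCL2, CCL20 and IL6) had no 3 CAOV3 libraries at that level, so they passed through TOV21G.

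RNA was sequenced from CAOV3 and TOV21G, established human ovarian epithelial cancer lines labelled high grade serous and clear cell, both wild type. Each line had 3 untreated libraries and 3 libraries from cells given 10% ovarian cancer ascites for 16 h (150 µL in 1.5 mL of DMEM with 10% serum and antibiotics). Ascites is abdominal fluid, which builds up in many patients with ovarian cancer. The donors of the ascites and whether wells of one group were separate cultures are not given in the sources used here, so the p-values measure the spread between these libraries, which may be technical, and no vehicle is described for the untreated wells. Each histology was represented by a single line, so a difference between the lines is not a difference between histologies.

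CXCL1, CXCL2, CXCL3, CXCL5 and CXCL8 are CXC chemokines that attract neutrophils through the receptors CXCR1 and CXCR2. CCL2 attracts monocytes, and CCL20 attracts cells that carry CCR6. IL6 and LIF belong to a family of cytokines that signal through the shared receptor chain gp130, encoded by IL6ST, to the transcription factor STAT3, whose feedback inhibitor is SOCS3. Many of these genes are textbook targets of NF-kB, a family of transcription factors released by inflammatory signals such as TNF.

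In GENCODE release 29 (GRCh38) all 9 genes are protein-coding. CXCL8 (ENSG00000169429; 73740506 to 73743716), CXCL1 (ENSG00000163739; 73869393 to 73871242), CXCL5 (ENSG00000163735; 73995642 to 73998779), CXCL3 (ENSG00000163734; 74036589 to 74038807) and CXCL2 (ENSG00000081041; 74097035 to 74099293) lie together on chromosome 4. IL6 (ENSG00000136244) lies on chromosome 7 from 22725884 to 22732002, and LIF (ENSG00000128342) on chromosome 22 from 30240447 to 30246851. CCL2 (ENSG00000108691) lies on chromosome 17 from 34255218 to 34257203, and CCL20 (ENSG00000115009) on chromosome 2 from 227805739 to 227817564. IL6 and LIF each overlap 2 genes on the opposite strand, and since strandedness is not given in the sources used here their counts could include reads of those genes. The longest transcripts of CXCL1 and CXCL2 were 90.5% identical, those of CXCL2 and CXCL3 82.2% and those of CXCL1 and CXCL3 79.8%, with identical runs of up to 77, 97 and 55 bases, so reads could be split or lost among these 3 genes. No other pair of these CXC genes had an identical run longer than 18 bases. CXCL6, their neighbour described below, was not compared with them.

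The promoters are shown because 6 of the genes carry the same kind of match to the NF-kB motif at nearly the same distance from the start. The windows below run from 110 to 41 bases before the RefSeq start (GRCh38.p14), read 5′ to 3′ on the strand of the gene, and capitals mark matches to the NF-kB consensus or to the shorter GGNNTTTCC on either strand. RefSeq entries were matched for 7 of the 9 genes. The RefSeq starts of CCL20 and IL6 lie inside the GENCODE gene bodies given above. The windows lie at chr4:73869283-73869352 for CXCL1, plus strand, chr4:74099236-74099305 for CXCL2, minus strand, chr4:74038730-74038799 for CXCL3, minus strand, chr4:73998718-73998787 for CXCL5, minus strand, chr4:73740459-73740528 for CXCL8, plus strand, chr7:22727090-22727159 for IL6, plus strand, and chr2:227813732-227813801 for CCL20, plus strand.
CXCL1: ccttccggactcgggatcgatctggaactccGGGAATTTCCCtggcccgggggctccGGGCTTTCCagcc
CXCL2: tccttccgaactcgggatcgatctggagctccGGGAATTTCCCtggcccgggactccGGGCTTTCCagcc
CXCL3: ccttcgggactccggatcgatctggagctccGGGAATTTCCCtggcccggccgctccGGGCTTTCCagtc
CXCL5: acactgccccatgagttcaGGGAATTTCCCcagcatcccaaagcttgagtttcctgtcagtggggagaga
CXCL8: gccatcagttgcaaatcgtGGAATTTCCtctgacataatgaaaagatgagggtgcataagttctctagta
IL6: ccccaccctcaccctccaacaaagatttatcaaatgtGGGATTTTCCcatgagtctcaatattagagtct
CCL20: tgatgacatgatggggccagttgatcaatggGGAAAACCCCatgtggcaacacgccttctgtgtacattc

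The NF-kB consensus was matched 79, 78, 79 and 91 bases before the start of CXCL1, CXCL2, CXCL3 and CXCL5, with the same 11 letters in these 4 genes, which match on both strands with 1 base of shift. IL6 held it at 73 bases and CCL20 at 79 bases, there on the opposite strand only. The promoter of CXCL8 held only GGNNTTTCC, at 91 bases, and those of CXCL1, CXCL2 and CXCL3 held a further copy of this form at 53 bases. In all 6 genes with the consensus, its match overlaps one to GGNNTTTCC. Among all 35116 RefSeq promoters of the same 300 bases (250 before and 50 after the start), 5.91% held the consensus and 6.26% GGNNTTTCC, on either strand. The AP-1 motif TGANTCA was found in 1 of the 7 promoters, that of CXCL8, at 137 bases before the start, outside the window shown, and in 7.71% of all promoters. These are matches of letters, and no binding was measured.

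Values below are the deposited normalised read counts, that is reads divided by a size factor per library. The libraries held 26697609 to 34491304 reads and 18153 to 18426 genes with at least 1 read. Log2 differences and their standard errors (SE) come from 1 limma fit of log2(value + 1) over all 12 libraries and 17616 genes, and a gene is said to have passed at a Benjamini-Hochberg adjusted p under 0.05; differences on this scale are understated for low genes. The labelled cell types were checked against marker genes. The 6 epithelial markers summed to between 153270 and 154110 in CAOV3 controls and to between 11293 and 12749 in TOV21G controls, where the mean of CDH1 (E-cadherin) was 13.3. PAX8, a marker of Müllerian epithelium, had a mean of 19.1 in CAOV3 controls and 7032 in TOV21G controls. Of 13 leukocyte markers 5 were analysed, and their sum was 241 to 255 in CAOV3 controls, 222 to 275 in CAOV3 with ascites, 867 to 955 in TOV21G controls and 772 to 919 in TOV21G with ascites. In TOV21G controls most of this sum was LAPTM5 (mean 849, against 38.2 in CAOV3 controls). ITGAM was also higher there (mean 40.7, against 8.06 in CAOV3 controls). CD14 (mean 11), CD79A (2.0) and LYZ (listed at 0) were lower there than in CAOV3 controls (81.3, 79.4 and 42). The common leukocyte gene PTPRC was not analysed here, nor were any of the 7 red cell and platelet markers.

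At baseline TOV21G held abundant CXCL1 and CXCL5 transcripts, while CAOV3 gave 1 read of each over all 3 control libraries. In bulk libraries, fewer cells that express a gene and less RNA per cell cannot be told apart. IL6 had no read in the CAOV3 controls, and LIF was the only one of the 9 genes with over 20 normalised counts in any CAOV3 control. All 9 genes were higher in TOV21G controls by limma, in a comparison where 82.2% of all genes passed and 40.8% passed as higher in TOV21G. The libraries of the lines did not overlap for 8 of the 9 (40.9% of all genes were higher without overlap), and CCL20 overlapped. CXCL1, CXCL5, CCL2, CCL20 and IL6 passed the filter on low values only through TOV21G, which favours this direction. The counts over the 9 genes are therefore no test of it.

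CXCL5, the neutrophil attractant with the highest count, was at 0, 1.08 and 0 in the CAOV3 controls and at 11557, 11139 and 11039 in the TOV21G controls. CXCL1, also known as GROα, was at 1.13, 0 and 0 against 7409, 6606 and 6909. Over the control groups the reads were 1 against 33590 for CXCL5 and 1 against 20836 for CXCL1, ratios of 31684 (95% interval 5686 to 1251489) and 19654 (3527 to 776317) after scaling, where the intervals cover counting error only. These genes were thus at the edge of detection in one line and abundant in the other.

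IL6 had no read in the 3 CAOV3 controls and normalised counts of 572, 505 and 495 in the TOV21G controls (1562 reads). With the empty group set at a floor of 3 reads over the group, the scaled ratio was 491. The exact 95% lower limit of the ratio, for counting error only, was 399. CXCL2 was at 7.94, 4.30 and 9.90 in CAOV3 controls and at 476, 515 and 478 in TOV21G controls, a ratio of means of 66.3. CXCL3 was at 5.67, 9.68 and 1.98 against 339, 329 and 332, a ratio of 57.7. CXCL2 and CXCL3 thus had reads in every CAOV3 library, unlike CXCL1 and CXCL5.

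CXCL8, the classical neutrophil attractant interleukin-8, stood at 10.2, 11.8 and 10.9 in CAOV3 controls and at 178, 166 and 175 in TOV21G controls, a ratio of means of 15.7. LIF, a cytokine of the IL6 family, was at 474, 487 and 489 against 1709, 1595 and 1630, a ratio of 3.40. CCL2 was at 0, 0 and 1.98 against 11.9, 14.7 and 12.6, with 2 reads against 39 and a scaled ratio of 18.4 (4.76 to 157, counting error only). CCL20 was low in both lines, at 10.2, 4.30 and 0.990 against 19.5, 24.1 and 6.28. The log2 difference of CCL20 was 1.66 (SE 0.57; limma adjusted p = 0.0151), and it no longer passed when CAOV3 control 3 or TOV21G control 2 was left out (differences of 1.01 and 1.32) or when the 6 control libraries were fitted alone (1.66).

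**Figure D1:**
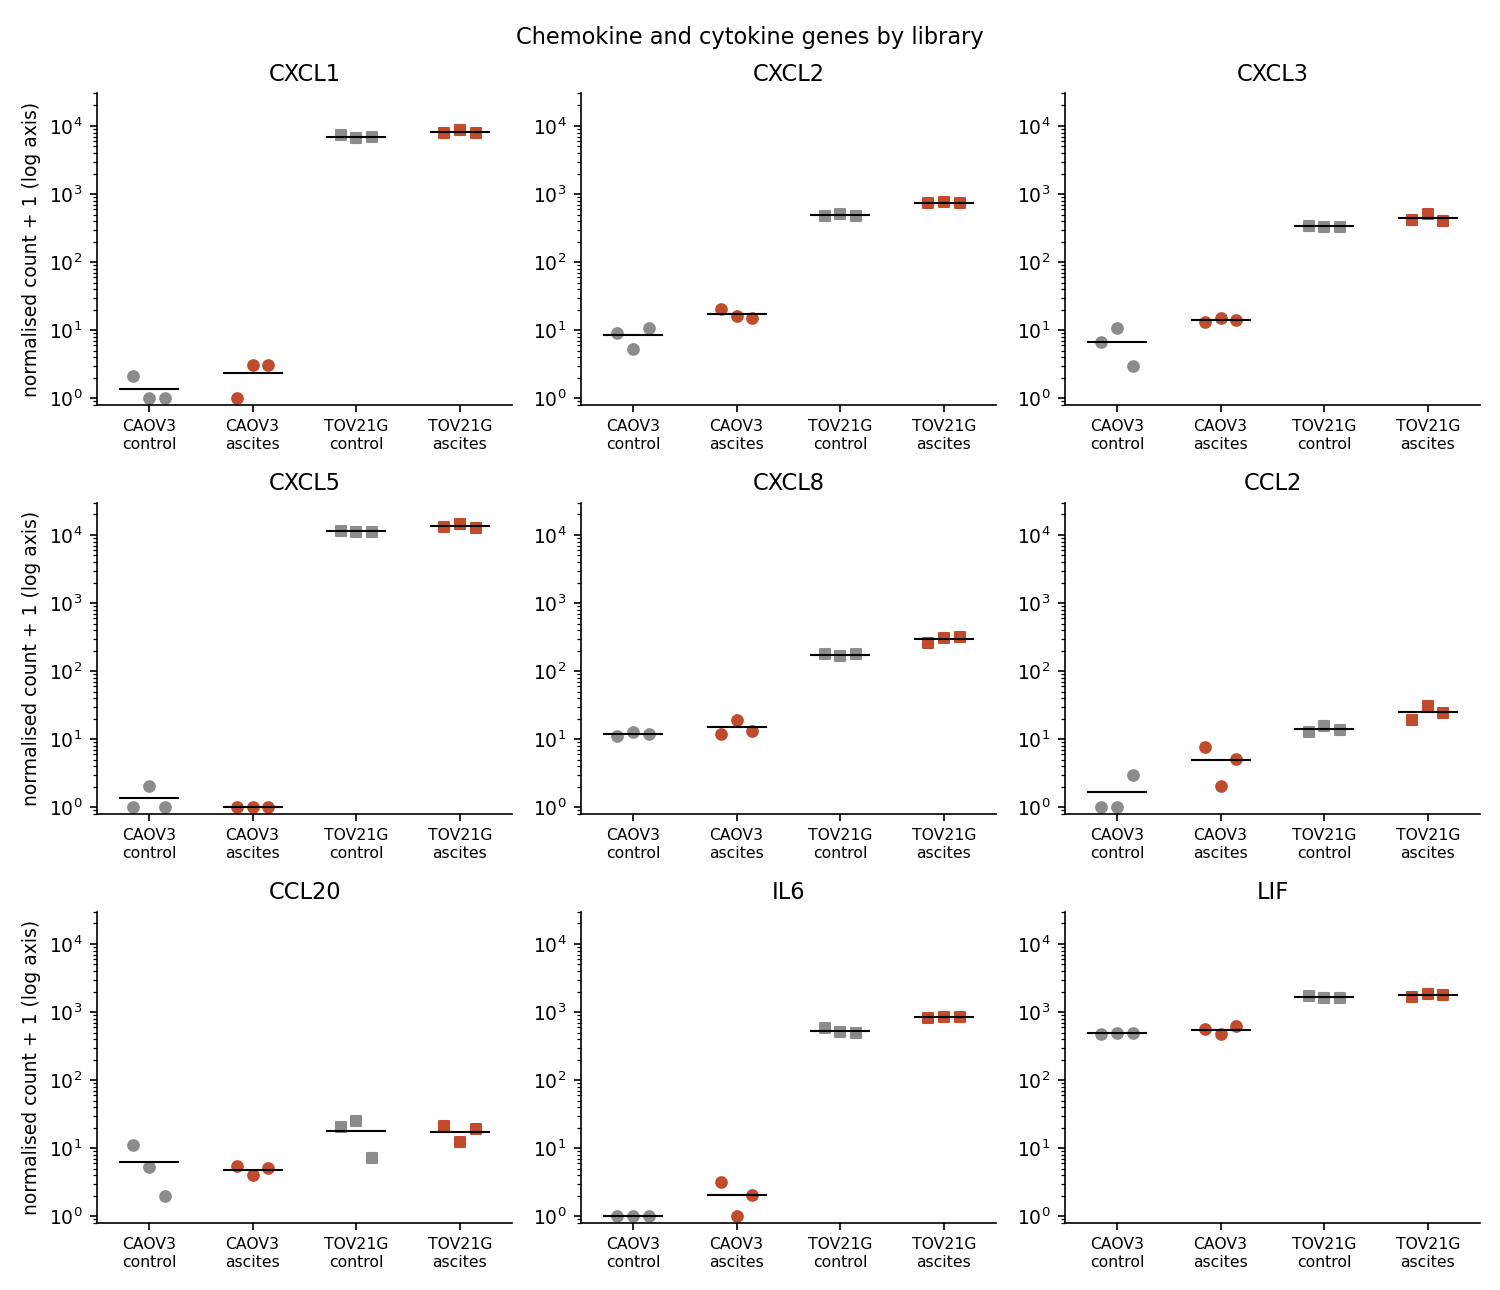
Normalised read count plus 1, on a log axis, for each of the 9 genes in each of the 12 libraries; points are libraries in the order of their replicate number, circles for CAOV3 and squares for TOV21G, grey for control and red for ascites, and the bar is the group mean. In CAOV3 only LIF stands above 100, and in TOV21G every gene except CCL2 and CCL20 stands above 100.

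Per kilobase of exon, the TOV21G controls ranked CXCL1 first at 5382 ± 313 normalised counts per kb (SD, n = 3) and CXCL5 next at 4431 ± 108. LIF followed at 414 ± 14.8, then CXCL2 at 326 ± 14.5, IL6 at 253 ± 20.2, CXCL3 at 150 ± 2.35 and CXCL8 at 76.0 ± 2.79. CCL20 (10.4 ± 5.81) and CCL2 (6.57 ± 0.726) came last and their libraries overlapped, while all other neighbours in this order were separated in every library. With ascites the order was the same except that CXCL2 (498 ± 8.36) stood above LIF (441 ± 22.8) and CCL2 above CCL20. In CAOV3 controls LIF was first at 122 ± 2.0 per kb and every other gene was under 7 in each library, and neighbours among those overlapped.

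The 5 CXC genes belong to a cluster with CXCL6, a further neutrophil attractant, that spans 359 kb from the start of CXCL8 to the far end of CXCL2. The level of these neighbours did not follow their order along the chromosome. In TOV21G controls CXCL6 had 218 normalised counts per kb, between CXCL8 (76.0) and CXCL1 (5382), which starts 129 kb from CXCL8. CXCL5, CXCL3 and CXCL2 follow at 255, 296 and 357 kb. All 6 genes were under 7 per kb as a mean in CAOV3 controls.

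**Figure D2:**
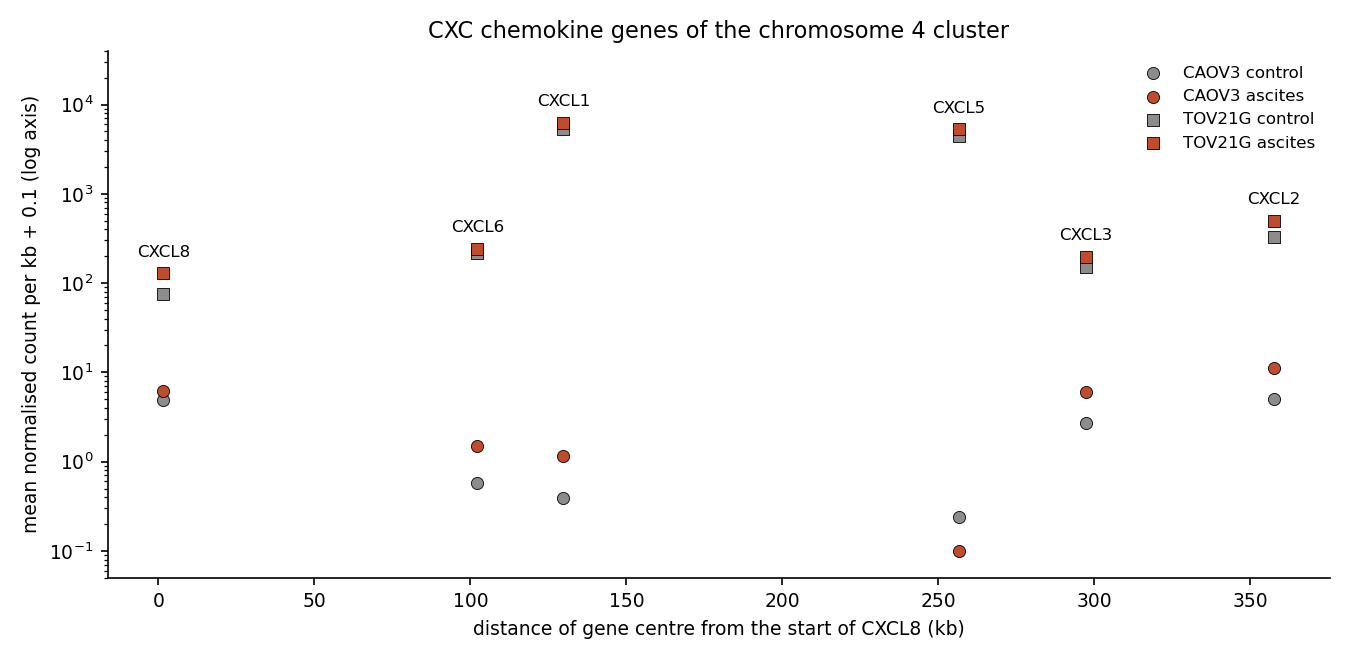
Mean normalised read count per kb of exon plus 0.1 (log axis) of the 6 CXC chemokine genes of the chromosome 4 cluster against the distance of the gene centre from the start of CXCL8 in kb; each point is the mean of 3 libraries, circles for CAOV3 and squares for TOV21G, grey for control and red for ascites. All TOV21G points lie above all CAOV3 points, and CXCL1 and CXCL5 lie highest in TOV21G and lowest in CAOV3.

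In TOV21G CXCL1, CXCL2, CXCL3, CXCL5, CXCL8 and IL6 had higher values in every ascites library than in any control, with ratios of means of 1.16 to 1.69, and the tests disagreed on which of them passed. The 3 ascites libraries lay above the 3 controls for 7 of the 9 genes (all but CCL20 and LIF), against 4.16% of all genes tested. The 9 genes were chosen with earlier results of these data known, so the shares given here are descriptions. The joint limma fit passed 0 of the 9 (3 at an unadjusted p under 0.05), where it passed 0.409% of all genes and 0.142% as higher. edgeR's quasi-likelihood test on the recovered reads passed 5 of the 9 as higher, CXCL1, CXCL2, CXCL5, CXCL8 and IL6, against 0.29% of all genes; DESeq2 passed 5 (0.295% of all genes) and limma voom 6, CXCL3 added (0.318%).

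CXCL8 had the largest ratio among the genes above 100 counts: 178, 166 and 175 in controls became 256, 303 and 319 with ascites, a ratio of means of 1.69 and a log2 difference of 0.75 (SE 0.19; limma adjusted p = 0.15, edgeR adjusted p = 0.0012). IL6 went from 572, 505 and 495 to 827, 839 and 855, a ratio of 1.60 (log2 0.68, SE 0.32; limma adjusted p = 0.545, edgeR adjusted p = 0.00014). CXCL2 went from 476, 515 and 478 to 743, 762 and 738, a ratio of 1.53 (log2 0.61, SE 0.22; limma adjusted p = 0.414, edgeR adjusted p = 9.4e-05). In all 3 genes the lowest ascites library stood clear of the highest control.

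CXCL3 was at 339, 329 and 332 in controls and at 418, 500 and 399 with ascites, a ratio of 1.32 (log2 0.39, SE 0.33; edgeR adjusted p = 0.0769). CXCL5 was at 11557, 11139 and 11039 and then at 12910, 14303 and 12820, a ratio of 1.19 (log2 0.25, SE 0.22; edgeR adjusted p = 0.0098). CXCL1 was at 7409, 6606 and 6909 and then at 7752, 8609 and 7827, a ratio of 1.16 (log2 0.21, SE 0.38; edgeR adjusted p = 0.047). The limma adjusted p was 0.73 for CXCL3, 0.74 for CXCL5 and 0.892 for CXCL1. CXCL1 and CXCL5, the genes with the highest levels, thus had the smallest ratios among these 5 CXC genes. CXCL6, their neighbour in the cluster, was at 485, 421 and 523 and then at 516, 542 and 528, with groups that overlapped and a ratio of 1.11.

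CCL2 stayed low, at 11.9, 14.7 and 12.6 in controls and 18.2, 30.1 and 23.3 with ascites (log2 0.80, SE 0.50; limma adjusted p = 0.637), from 39 and 82 reads per group. CCL20 overlapped, at 19.5, 24.1 and 6.28 against 19.9, 11.5 and 17.9 (ratio of means 0.987). LIF also overlapped, at 1709, 1595 and 1630 against 1658, 1839 and 1758 (ratio 1.07; log2 0.09, SE 0.07). All 9 log2 differences were above 0, with a median of 0.39, against 41.7% of all genes and a median of -0.02 over all genes.

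The joint fit takes 1 spread per gene over both lines. For IL6 the SD of log2(value + 1) was 0.11 and 0.02 in the TOV21G groups and 0.84 in CAOV3 with ascites, where the libraries held 3 reads in all, and the same SE of 0.32 applied to both lines. With TOV21G fitted alone by limma 1 of the 9 passed, CXCL2, out of 8 genes in all. Without single libraries edgeR passed 3 to 5 of the 9, with 3 when TOV21G control 3 or ascites 1 was left out. CXCL2, CXCL8 and IL6 were among them each time. Among these fits CXCL1 passed only without CAOV3 ascites 1 or TOV21G control 1, and CXCL3 passed without CAOV3 control 2 or 3.

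**Figure D3:**
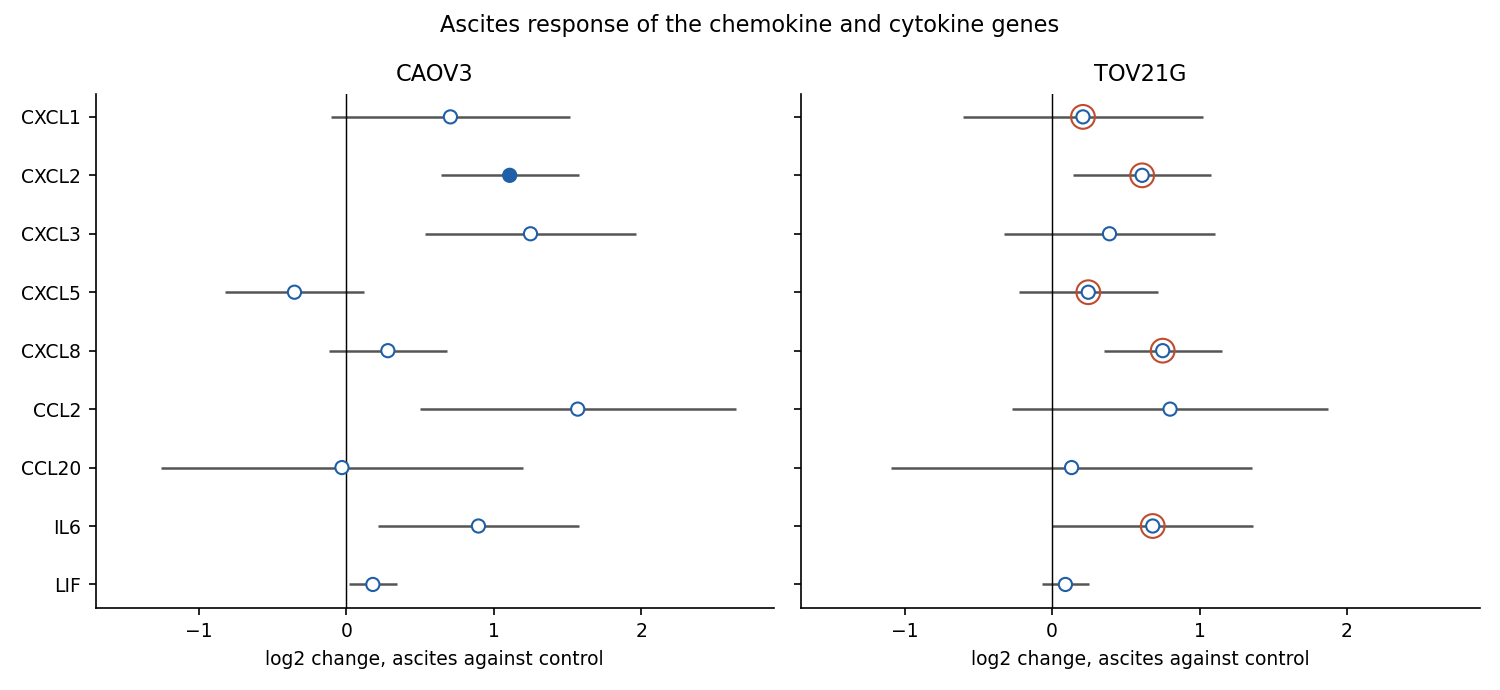
Log2 difference between ascites and control for the 9 genes in CAOV3 (left) and TOV21G (right); points are limma estimates from the joint fit on log2(value + 1), lines their 95% intervals, filled points passed in limma and red rings passed in edgeR (adjusted p under 0.05). CXCL2 in CAOV3 is the 1 filled point, and 5 genes in TOV21G carry a ring.

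Libraries of TOV21G differed within their groups along 1 axis that held 71.3% of the within-group variance, with control 1 (score -12.1) and ascites 2 (-11.2) at one end and control 2 (10.8) and ascites 3 (8.95) at the other. Of the 7 genes with means of at least 100 in both TOV21G groups, control 1 was the highest control for 6 and ascites 2 the highest ascites library for 5. The exceptions were highest in the libraries at the other end, CXCL2 in control 2 and CXCL8 and IL6 in ascites 3. The part of this axis in the response was not tested beyond leaving libraries out. With control 1 and ascites 2 both left out, the log2 differences were 0.74 for CXCL8, 0.75 for IL6, 0.58 for CXCL2, 0.30 for CXCL3, 0.21 for CXCL5 and 0.21 for CXCL1, and edgeR passed the same 5 genes.

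**Figure D4:**
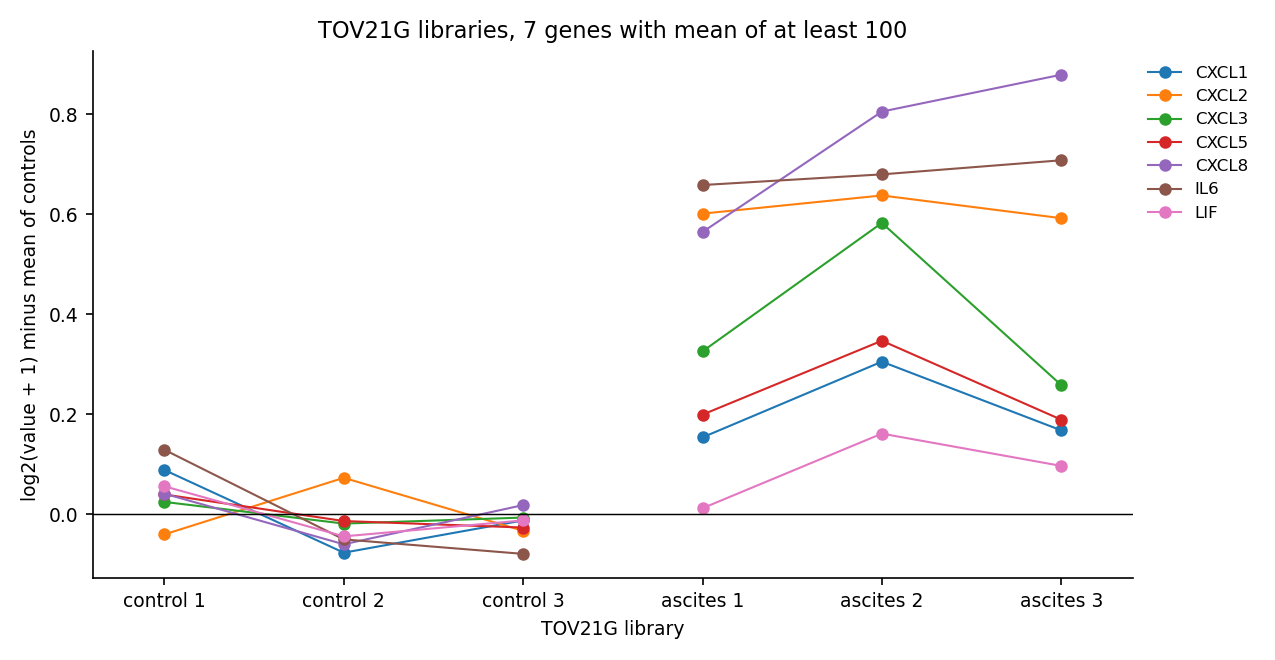
Log2(value + 1) minus the mean of the 3 controls (y axis) in the 6 TOV21G libraries (x axis) for the 7 genes with means of at least 100; lines join the libraries of a group and carry no order in time. All ascites points of CXCL8, IL6, CXCL2, CXCL3, CXCL5 and CXCL1 lie above the control points of the same gene, and those of LIF overlap its controls.

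In CAOV3 the change was seen at very low levels. CXCL2 rose in the joint limma fit, from 7.94, 4.30 and 9.90 to 19.7, 15.3 and 14.3, a log2 difference of 1.11 (SE 0.22; limma adjusted p = 0.0205). It was the only 1 of the 9 to pass, where 1.73% of all genes passed and 0.636% passed as higher. The groups rest on 21 and 47 reads, and the scaled ratio of 2.20 has a 95% interval of 1.29 to 3.88 from counting error alone. The call was not made by edgeR (adjusted p = 0.0571), DESeq2 (0.0723) or voom (0.104), which passed 2.9%, 2.88% and 3.32% of all genes. It was lost in limma without CAOV3 ascites 1 (0.0881) or ascites 2 (0.0565), and with CAOV3 fitted alone or the replicate block. The joint SE also draws on TOV21G. The SD of log2(value + 1) of CXCL2 was 0.54 in CAOV3 controls and 0.23 with ascites, against 0.06 and 0.02 in TOV21G.

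CXCL3 was at 5.67, 9.68 and 1.98 in CAOV3 controls and at 12, 14.3 and 13.3 with ascites (log2 1.25, SE 0.33; limma adjusted p = 0.0927). CXCL2 and CXCL3 were the 2 genes whose ascites libraries all lay above the controls, against 11.4% of all genes. LIF, the 1 gene well expressed in CAOV3, was at 474, 487 and 489 and then at 559, 480 and 614 (ratio of means 1.14; log2 0.18, SE 0.07; limma adjusted p = 0.319), with ascites 2 inside the range of the controls.

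CXCL8 was at 10.2, 11.8 and 10.9 in CAOV3 controls and at 10.9, 18.4 and 12.3 with ascites (log2 0.28, SE 0.19), with groups that overlapped. CCL2 was at 0, 0 and 1.98 and then at 6.56, 1.02 and 4.09, from 2 and 11 reads, a scaled ratio of 5.41 with a counting interval of 1.18 to 50.2. IL6 had 0 reads in controls and 3 with ascites, at 2.19, 0 and 1.02. CXCL1 had 1 read and then 4, CXCL5 1 read and then 0, and CCL20 14 reads and then 11. None of these 4 genes passed in CAOV3 in any of limma, edgeR, DESeq2 or voom with all libraries. In limma IL6 (unadjusted p = 0.0139) passed without ascites 2 (adjusted p = 0.00919), CXCL1 without ascites 1 (adjusted p = 0.0464), and CXCL3 without control 2 (adjusted p = 0.0112). The 9 log2 differences had a median of 0.71 (7 above 0), against a median of -0.002 and 47.7% of all genes. That median is the value of CXCL1, from 1 read and then 4, while LIF, the 1 gene well expressed here, had 0.18. Of the 9, 5 had an unadjusted limma p under 0.05, as did 2280 genes in all.

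No difference between the lines in the response to ascites passed for any of the 9 genes in limma, edgeR, DESeq2 or voom, and no gene of the 9 had an unadjusted limma p under 0.05; limma passed 0.545% of all genes, edgeR 0.84%, DESeq2 1.2% and voom 0.766%. The smallest limma adjusted p was 0.469, for CXCL5. The intervals were wide: the TOV21G minus CAOV3 difference was 0.47 (95% interval -0.10 to 1.03) for CXCL8, -0.50 (-1.16 to 0.17) for CXCL2 and -0.21 (-1.18 to 0.75) for IL6 on the log2 scale. For LIF, measured well in both lines, it was -0.09 (-0.32 to 0.14).

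Related genes were taken from lists chosen with earlier results of these data known. Of 30 other chemokine genes 7 were analysed and 6 tested, and limma passed none for ascites in either line (1 at an unadjusted p under 0.05 in CAOV3, 0 in TOV21G). CX3CL1, a membrane-bound chemokine, was at 421, 463 and 411 in CAOV3 controls and at 310, 311 and 353 with ascites (limma log2 -0.41; edgeR adjusted p = 0.0265), and is named after its values were seen. Between the control groups CXCL6 was higher in TOV21G by 8.0 on the log2 scale, while CCL15 (mean 69.9 in CAOV3, listed at 0 in TOV21G) and CX3CL1 (mean 431 and 17.4) were lower. Of the 6 tested, 2 were higher and 4 lower in TOV21G, in a comparison where limma passed 82.2% of all genes. CCL28 (means 536 in CAOV3 and 714 in TOV21G) and CXCL16 (319 and 230), named after their values were seen, were present in both lines at closer levels.

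Of 30 other inflammatory cytokines 18 were analysed and 17 tested. CSF1, the growth factor of macrophages, rose in CAOV3, from 126, 136 and 123 to 154, 177 and 180 (log2 0.41, SE 0.08; limma adjusted p = 0.0163). In TOV21G CSF1 was at 2297, 2139 and 2190 and then at 2812, 3160 and 2636 (log2 0.37, SE 0.08; limma adjusted p = 0.0664, edgeR adjusted p = 0.00033). TNF, a main activator of NF-kB, was listed at 0 in all 6 CAOV3 libraries and went from 293, 269 and 270 to 482, 511 and 480 in TOV21G (log2 0.82, SE 0.18; limma adjusted p = 0.0869, edgeR adjusted p = 0.00014). limma passed 0 of these 17 in TOV21G (6 at an unadjusted p under 0.05) and edgeR 2, CSF1 and TNF, against 0.29% of all genes passed as higher. In CAOV3 edgeR also passed 2, CSF1 (adjusted p = 0.0302) and IL11 (0.0498), against 2.9% of all genes. IL11, named after its values were seen, went from 614, 565 and 539 to 676, 681 and 719 there. DESeq2 passed CSF1 (adjusted p = 0.0203) and not IL11 (0.0694), and voom passed IL11 (0.0166) and not CSF1 (0.156). At baseline IL32, a proinflammatory cytokine, was higher in TOV21G (means 28.6 and 2407), and TSLP, an epithelial cytokine, was lower (64.4 and 0.349).

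NF-kB regulators were counted over 20 subunits, kinases and inhibitors, all tested. In TOV21G limma passed 2, both higher: BIRC3, an inhibitor of apoptosis induced by NF-kB, went from 3159, 3109 and 3122 to 4486, 4832 and 4456 (log2 0.55, SE 0.05; limma adjusted p = 0.00049). TNFAIP3, which encodes the NF-kB inhibitor A20, went from 1100, 1048 and 1040 to 1550, 1679 and 1528 (log2 0.58, SE 0.10; limma adjusted p = 0.0261). Over all genes limma passed 0.142% as higher. In 10 of the 20 all ascites libraries lay above all controls, against 4.16% of all genes. edgeR, DESeq2 and voom each passed 8 of the 20 as higher and none as lower, against 0.29%, 0.295% and 0.318% of all genes passed as higher. Among these 8, named after their values were seen, NFKBIA, the inhibitor IκBα, was at 3236, 2954 and 3111 and then at 3550, 3831 and 3416 (log2 0.21; edgeR adjusted p = 0.0101).

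In CAOV3 limma passed 0 of the 20 NF-kB regulators (7 at an unadjusted p under 0.05), and edgeR, DESeq2 and voom passed 1 each. Over all genes edgeR passed 2.9%, DESeq2 2.88% and voom 3.32% there. BIRC3 was at 305, 335 and 345 in CAOV3 controls and at 395, 393 and 362 with ascites, and TNFAIP3 at 129, 131 and 126 and then at 108, 147 and 147. Their difference between the lines did not pass in limma (BIRC3 0.33, adjusted p = 0.107; TNFAIP3 0.53, adjusted p = 0.171) and passed in edgeR (adjusted p of 0.0237 and 0.0456). The median log2 difference of the 20 genes was 0.14 in TOV21G and 0.04 in CAOV3.

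The factors of the AP-1, C/EBP and STAT3 families, with SOCS3, were 12 genes, all tested. In CAOV3 limma passed 5 of these 12, all higher, against 0.636% of all genes passed as higher: SOCS3, CEBPD, JUNB, STAT3 and FOSL1. SOCS3 went from 159, 154 and 140 to 416, 456 and 461 (log2 1.55, SE 0.10; limma adjusted p = 3.8e-06). CEBPD, an acute-phase transcription factor, went from 89.7, 109 and 100 to 159, 161 and 171 (log2 0.71, SE 0.09; limma adjusted p = 0.00063). The AP-1 subunit JUNB rose by 0.46 on the log2 scale, STAT3 by 0.43 and FOSL1 by 0.30.

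In TOV21G limma passed 0 of these 12 genes (2 at an unadjusted p under 0.05) and edgeR 1, FOSL1. SOCS3 was at 285, 237 and 260 in TOV21G controls and at 229, 260 and 206 with ascites. Its difference between the lines passed (log2 -1.73, SE 0.14; limma adjusted p = 8.4e-05), as did those of JUNB and STAT3. In TOV21G, then, the IL6 transcript was higher in every ascites library while the SOCS3 libraries overlapped, and in CAOV3 SOCS3 rose where IL6 had 3 reads.

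Of 16 receptor and antagonist genes 7 were analysed, and CXCR1 and CXCR2 were not. IL6ST rose in CAOV3, from 3072, 2990 and 3265 to 3813, 3669 and 3623 (log2 0.25, SE 0.04; limma adjusted p = 0.0056). IL1R1, the receptor of IL-1, also passed there (log2 2.11, SE 0.46; limma adjusted p = 0.0351), at 2.27, 0 and 3.96 and then at 7.66, 11.2 and 11.3, and did not in edgeR (adjusted p = 0.0563). In TOV21G limma and edgeR passed 0 of the 7 (1 at an unadjusted p under 0.05). At baseline LIFR, the receptor of LIF, was higher in TOV21G (means 8.82 and 384), as was IL1RAP (272 and 2886), while the decoy receptor IL1R2 was lower (193 and 4.81).

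Of 10 factors that control the decay of cytokine mRNA, such as ZFP36, limma passed 0 for ascites in either line (1 at an unadjusted p under 0.05 in CAOV3 and 2 in TOV21G). Of 9 secretion and processing enzymes 6 were tested, and limma again passed 0 in either line, with 0 at an unadjusted p under 0.05. edgeR passed 0 decay factors in either line and 2 enzymes as lower in CAOV3, DPP4 and MMP1, where it passed 2.9% of all genes. In TOV21G voom passed 1 decay factor as higher, against 0.318% of all genes passed as higher. Between the control groups 3 decay factors were higher in TOV21G and 4 lower by limma, which passed 82.2% of all genes there. ZFP36L1 was higher (means 3779 in CAOV3 and 14000 in TOV21G), and ZFP36 (657 and 140) and AUH (554 and 277) were lower. DPP4, a protease that trims chemokines, was at a mean of 0.598 in TOV21G and 3000 in CAOV3 controls. MMP1, a collagenase, was listed at 0 in TOV21G and had a mean of 756 in CAOV3.

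**Figure D5:**
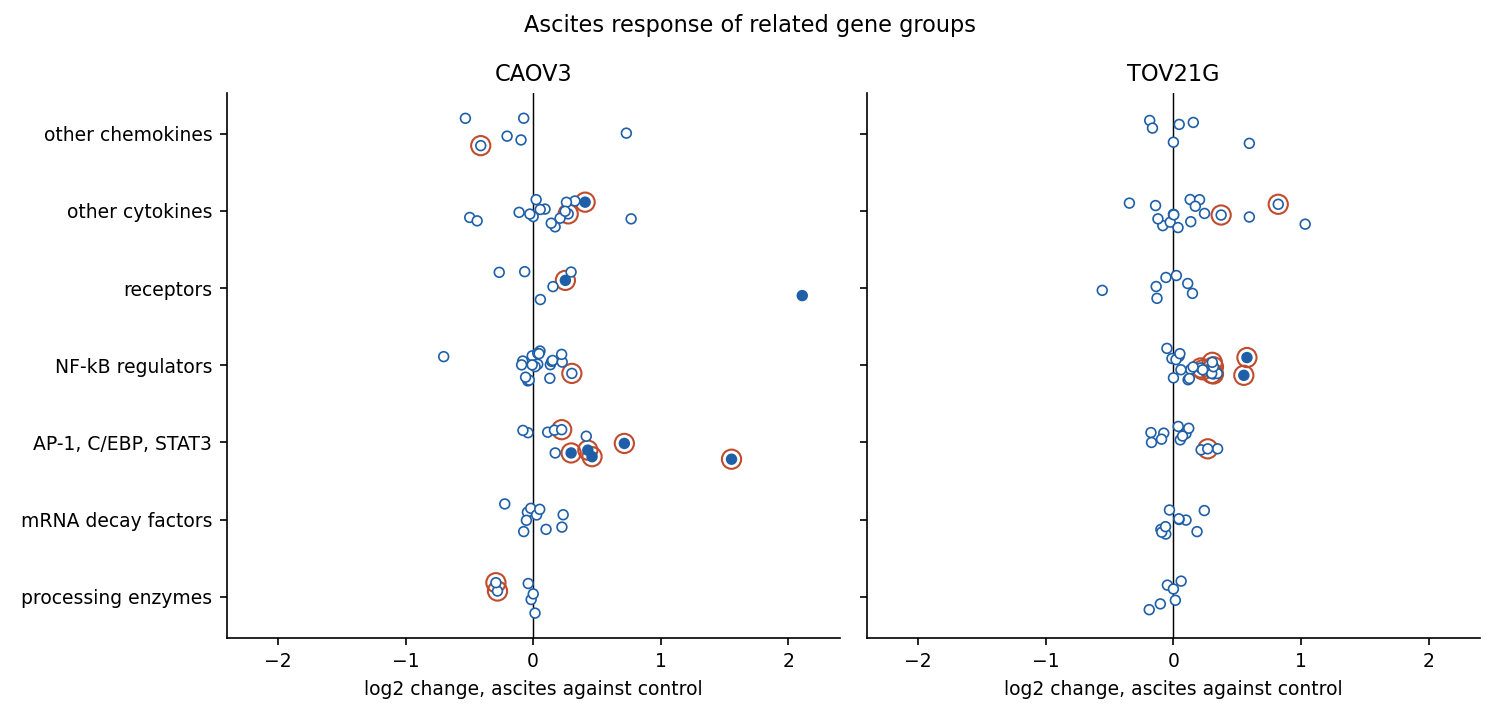
Log2 difference between ascites and control (x axis) for the tested genes of 7 related groups (rows) in CAOV3 (left) and TOV21G (right); each point is a gene, filled points passed in limma and red rings passed in edgeR (adjusted p under 0.05), and the vertical spread within a row has no meaning. The filled points of CAOV3 lie mostly among the AP-1, C/EBP and STAT3 factors, 5 of 12, and those of TOV21G among the NF-kB regulators, 2 of 20.

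Marker genes of other cells were counted in the same fit. Of the leukocyte markers limma and edgeR passed 0 of 5 in either line (0 at an unadjusted limma p under 0.05 in both). Of the mesothelial markers they passed 0 of 4 in either line, also with 0 at an unadjusted limma p under 0.05. Of 6 fibroblast markers tested, COL1A2 fell in CAOV3 by 1.43 on the log2 scale, from a mean of 2.46 to 0.365, and not in edgeR (adjusted p = 0.232). The fibroblast sum was 5560 to 6419 in CAOV3 controls and 5328 to 5478 with ascites. In TOV21G it was 12549 to 13084 and 11261 to 11694, so that the ascites libraries lay below the controls in both lines. Most of the sum was LUM in CAOV3 (means 4196 and 3647) and COL1A2 in TOV21G (10854 and 9661). Of the 6 fibroblast markers, 3 had a log2 difference above 0 in CAOV3 and 1 in TOV21G. DESeq2 and voom each passed 1 of them as lower in TOV21G. Of the 6 epithelial markers, the keratins KRT8 and KRT18 rose in CAOV3 by 0.29 and 0.33 on the log2 scale in limma. CDH1 was at 455, 389 and 430 in CAOV3 controls and at 266, 268 and 281 with ascites (log2 -0.64, SE 0.32; limma adjusted p = 0.438, edgeR adjusted p = 0.0042), and is named after its values were seen. PAX8 was higher in all TOV21G ascites libraries (log2 0.33; limma adjusted p = 0.161, edgeR adjusted p = 0.0013). The part of other cells in the chemokine values was not tested.

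Likeness to other genes was described over the 12 libraries, with each line's own mean subtracted from log2(value + 1), and without a test. The libraries share depth and treatment. Among the 7 genes with means of at least 100 in a line, Pearson's r was highest for IL6 with LIF (0.81) and for CXCL2 with IL6 (0.73), and lay between -0.55 and 0.56 for the other 19 pairs. The most similar genes were C5AR1 (0.96), IL6ST (0.95) and IFRD1 (0.93) for CXCL2, and USP2-AS1 (0.97), PAX8 (0.93) and DCUN1D4 (0.90) for CXCL8. For IL6 they were NKX6-2 and ENSG00000267152 (0.90 each) and SGSH (0.88), for LIF PDZK1IP1 (0.90), SORD2P (0.90) and ASPHD1 (0.87), and for CXCL3 FOS (0.95), CSAG1 (0.94) and E2F6 (0.93). For CXCL1 (SCARF2, ENSG00000254044 and KMO, 0.95 each) and CXCL5 (LRRN3 and KCNIP1, 0.95 each, and RIPK3, 0.94) the likeness draws largely on CAOV3 libraries that held at most 2 reads of either chemokine. CXCL3 and IL6 were also near the limit of detection in CAOV3, CSAG1 was at 0 in TOV21G controls, and NKX6-2 and PDZK1IP1 were at 0 in CAOV3 controls.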

How the data were processed

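Total RNA was sequenced in 12 libraries, 3 in each of 4 groups. The submitters' processing notes name Trim Galore, cutadapt, STAR, HTSeq and DESeq, here without roles or versions. The genome build is not given in the sources used here. The deposited signal is 1 normalised read count per gene and library for 19251 genes. Every deposited value was a whole multiple of 1 step per library (100% of values, largest deviation 5.33e-05 reads), and the steps match median-of-ratios size factors over all 12 libraries, so reads were recovered for the count tests. In the deposited list every gene had at least 10 reads in some library.

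Symbols came from a gene name table (19087 identifiers) and GENCODE 29 (136), with 28 unnamed. The main test was limma 3.58.1 in R 4.3.3 (trended eBayes, two-sided) on log2(value + 1), all 12 libraries in 1 fit, for genes with a value of at least 10 in at least 3 libraries (17616 genes), with Benjamini-Hochberg adjustment per contrast over all of them at 0.05. The 4 contrasts were ascites against control in each line, their difference, and the control groups of the lines. edgeR 4.0.16, DESeq2 1.42.0, other pseudocounts, filters, TMM scaling, fits within the groups compared, the replicate block and libraries left out were alternatives; voom, the pair of TOV21G libraries left out and edgeR with libraries left out were added after the data were seen. The code was tested on simulated data. The members and lists were chosen with earlier results of these data known. Named genes were all members and, per list and contrast, all called genes if 3 or fewer, otherwise the 3 with the largest difference among those with a group mean of at least 50; likeness names the 3 nearest genes. Intervals of read ratios are exact and cover counting error only.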

Additional observations from a re-analysis of the deposited data

Results flagged for a closer look

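In 4 genes of the related lists the response to ascites differed between the lines by the test of the difference itself (limma, TOV21G minus CAOV3, log2): SOCS3 by -1.73 (adjusted p = 8.4e-05), JUNB by -0.54 (adjusted p = 0.0269), STAT3 by -0.36 (adjusted p = 0.021) and KRT8 by -0.41 (adjusted p = 0.0483). JUNB was at 2289, 2486 and 2137 in CAOV3 controls and 3257, 3065 and 3179 with ascites, and at 2476, 2187 and 2400 and then 2254, 2410 and 2045 in TOV21G. STAT3 was at 1809, 1757 and 1852 and then 2377, 2389 and 2525 in CAOV3, and at 7912, 7221 and 7464 and then 7848, 8165 and 7726 in TOV21G. No chemokine or cytokine gene of the 9 was among them.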

How the results depend on the processing

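Of the member values under alternatives other than leaving out a library, 350 kept their direction and side of the threshold, 17 gained a call, 7 lost one and 5 changed sign; with single libraries left out the counts were 417, 3, 4 and 8. In CAOV3 the number of the 9 genes called fell from 1 to 0 with edgeR, DESeq2, voom, CAOV3 fitted alone and the replicate block, and was 1 to 2 without single libraries (0 to 1 with edgeR, LIF without CAOV3 ascites 2; CXCL2 without TOV21G control 1 and ascites 2). All genes called there were 305 by limma, 511 by edgeR, 507 by DESeq2, 584 by voom, 116 with the replicate block, 614 without TOV21G control 1 and ascites 2, and 172 (without CAOV3 ascites 2) to 344 without single libraries. In TOV21G the number of the 9 was 0 by limma, 5 by edgeR and by DESeq2, 6 by voom and 1 with TOV21G alone, and 0 to 0 without single libraries (3 to 5 with edgeR). All genes called were 72, against 114 (edgeR), 150 (DESeq2), 127 (voom), 8 (alone), 13 (replicate block) and 24 (without TOV21G control 3) to 136 (without ascites 2). For the difference between the lines 96 became 148 (edgeR), 212 (DESeq2), 9 (replicate block), 178 (the 2 TOV21G libraries left out) and 40 (without TOV21G control 3) to 146 (without ascites 2); the fit of only the groups compared gives no value for it. At baseline 8 to 9 of the 9 passed without single libraries. CCL20 in CAOV3 changed sign, from -0.03 to 0.0198 with pseudocount 0.5, 0.0578 with voom and -0.681 to 0.567 without single libraries, and in TOV21G to -0.0014 with DESeq2 and -0.415 to 0.478. The difference between the lines changed sign for CCL2 (0.0393) and IL6 (0.414) with pseudocount 5, and ranged from -0.662 to 0.174 for IL6 and from -0.435 to 0.813 for CCL20 without single libraries. The cause was not tested. No shared deviation of same-numbered libraries was seen (r -0.0689, 0.0603 and 0.0136 in CAOV3, -0.165, -0.417 and 0.0726 in TOV21G). With 3 libraries per group these values cannot tell whether the numbers mark pairs. The largest r in TOV21G was 0.455, between control 1 and ascites 2. Depth limits CXCL1, CXCL5, CCL2, CCL20 and IL6 in CAOV3, with at most 14 reads per group.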
